A study of Sus scrofa with 21 samples.

Results

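Iron transport and storage were followed in the blood RNA of DD and Large White (LW) pigs through 9 genes, SLC11A1, SLC11A2, SLC40A1, TFRC, STEAP3, FTH1, FTL, IREB2 and ACO1P. A probe was counted for a gene when the array annotation gave exactly that gene name. By this rule 8 of the 9 genes had probes, 28 of the 60305 probes of the array in all, and no probe carried the name ACO1P. The array held 48527 distinct gene or transcript names. DD pigs (SLAdd) are an inbred line of minipigs that carries a single haplotype of the swine leucocyte antigen complex, and LW pigs are a standard commercial breed. All pigs were 60 days old, had free access to the same standard diet and had no other treatment, and 1 whole-blood RNA sample per pig was hybridised to a one-colour array. There were 10 DD pigs from 5 litters and 11 LW pigs from 6 litters, spread over 3 chips that each held both breeds.

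Cells take up iron bound to transferrin through the transferrin receptor TFRC. In the endosome the metal is reduced by ferrireductases such as STEAP3 and moved into the cytosol by the divalent metal transporter SLC11A2, also known as DMT1. SLC11A1, also known as NRAMP1, is the related pump of the phagosome membrane of macrophages and neutrophils, where it withdraws metal ions from engulfed microbes, and recycling macrophages release iron to plasma through ferroportin, SLC40A1. Iron that is not used is stored in the ferritin shell of heavy (FTH1) and light (FTL) chains. The iron regulatory proteins, encoded by ACO1 and IREB2, bind iron-responsive elements in the messages of ferritin, ferroportin and TFRC and set their translation or stability.

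The probes differed in how well they covered the genes, and some of them overlapped. FTH1 had 11 probes, IREB2 4, SLC11A1 and SLC11A2 3 each, FTL, TFRC and STEAP3 2 each, and SLC40A1 1. The probes were 60 bases long, and those of SLC11A1 had no run of 18 or more bases in common. Their places on the transcript were not determined. The first 30 bases of each SLC11A1 probe are given to identify them, with P077586, P708676 and O4480 as their short names.
P077586: gacaacaccaatcttgcaacggatgtaaag
P708676: aaacatccagtcggatcttcaggctggcgc
O4480: gaacacaggctccaaacaggtatttaaaat

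The pair of FTL probes carried opposite strands of the same place. P050477 was designed on the reference FTL message and O14325 was its reverse complement over 44 bases, of which 30 are printed as they stand on each probe.
P050477: tacctcttcgaaaggctcacactcaagcac
O14325: gtgcttgagtgtgagcctttcgaagaggta

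Of the 11 FTH1 probes, 4 were chained to each other by shared runs, 4 others were chained in the same way at a second place, and 3 shared no such run. These probes were therefore not independent readings of the gene. The start of a run shared within each of the sets is shown, because the sets are compared below.
FTH1 first set: caaaaatgacccccacttgtgtgacttcat
FTH1 second set: ccagaacatctacttcagttctttccttag

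In the RefSeq annotation of the pig genome build Sscrofa11.1, all members other than ACO1P were found. SLC11A1 lies at chr15:120434100-120446396, and the same chromosome holds SLC40A1 at chr15:94140635-94161793 and STEAP3 at chr15:24736556-24785376. FTH1 lies at chr2:9535051-9537979, FTL at chr6:54231121-54232756, IREB2 at chr7:47481539-47529199 and TFRC at chr13:133976765-133997554. SLC11A2 is on a scaffold that is not placed on a chromosome, at positions 341375 to 380525.

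Values are log2 quantile-normalized intensities as deposited, and the value of a gene is the mean of its probes that remained after the dimmest 25% of probes were removed. A level of 1 probe cannot be set against that of another, so all comparisons are between pigs. The breeds were compared for 35578 features by limma in a model of breed and chip in which littermates formed a random block, and features with a Benjamini-Hochberg adjusted p-value under 0.05 were called. Differences are given as DD minus LW on the log2 scale with their standard error. At this threshold 21% of all features were called, 11.4% higher and 9.57% lower in DD pigs, and the median difference of all features was −0.04. Of the 8 members tested, 1 was called, SLC11A1, which was higher in DD pigs. The median difference of the members was 0.27, and 6 of the 8 were positive, where 16073 of the 35578 features were. The 6 include SLC40A1 and STEAP3, whose kept probes were well above background on no array and on 1 array. Blood markers were present: HBB, CD3E, CD14 and S100A8 were above background on every array. As blood is a mixture, fewer cells of a type and less RNA per cell cannot be told apart in any of these values.

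**Figure D1:**
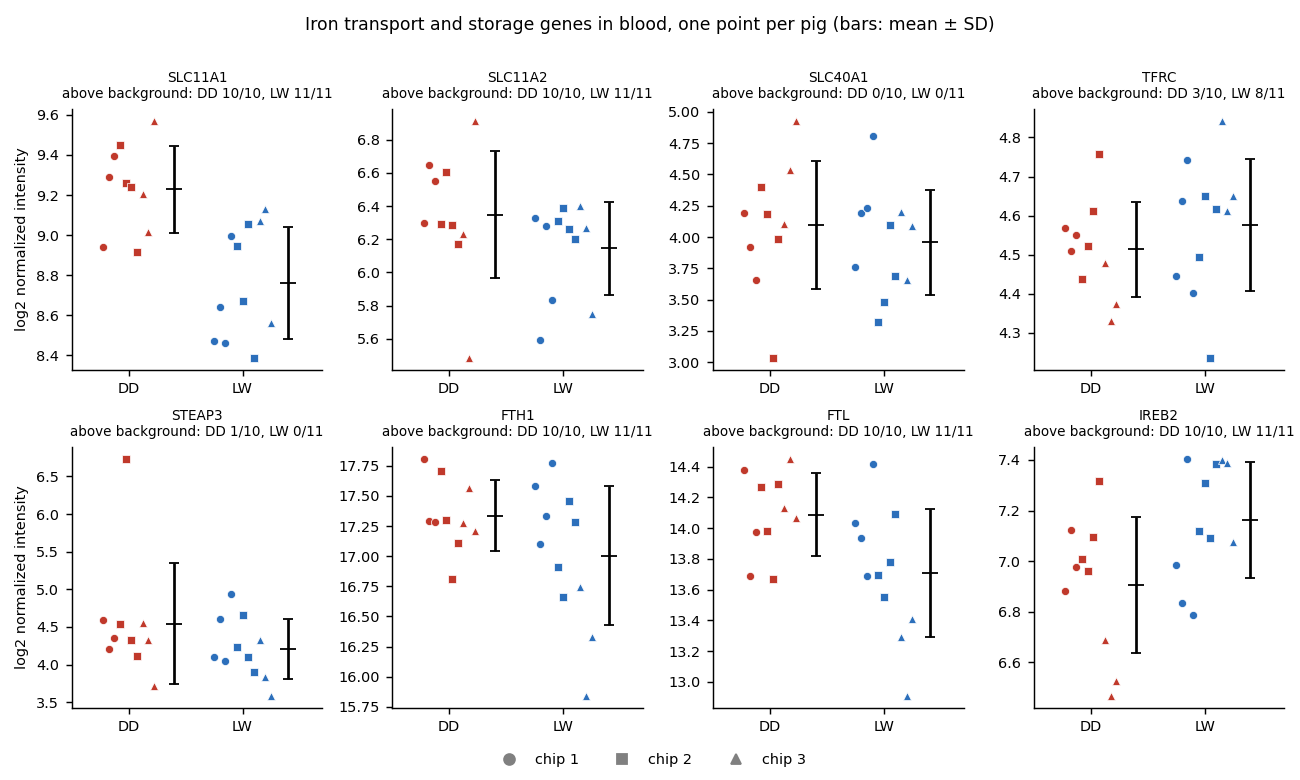
Level of each member (log2 normalized intensity, y axis) in every DD and LW pig, with the chip shown by the marker shape and black bars for the mean ± SD of a breed. Titles give the number of arrays on which at least 1 probe of the gene was well above background, and SLC11A1 shows 7 DD pigs above all LW pigs.

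SLC11A1 was higher in DD pigs. Its level ranged from 8.92 to 9.57 in DD pigs with a median of 9.25, and from 8.39 to 9.13 in LW pigs with a median of 8.67. Of the 10 DD pigs, 7 lay above every LW pig, and 6 of the 11 LW pigs lay below every DD pig, so the breeds overlapped only in part. With chip effects removed no member had breeds without overlap, which 0.675% of all features had. The difference was 0.46 ± 0.12, a 1.37-fold higher level, with an adjusted p of 0.0141. All SLC11A1 probes were well above background on all 21 arrays.

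The difference in SLC11A1 was seen on each chip. Chips 1, 2 and 3 gave 0.57, 0.45 and 0.34. On chip 1 the DD pigs had 8.94, 9.29 and 9.39 and the LW pigs 8.46, 8.47, 8.64 and 8.99. On chip 2 the DD values were 8.92, 9.24, 9.26 and 9.45 and the LW values 8.39, 8.67, 8.95 and 9.06. On each of these chips a single DD pig fell inside the range of the LW pigs. On chip 3 the DD values were 9.01, 9.20 and 9.57 and the LW values 8.56, 9.07 and 9.13. The interaction of breed and chip had an adjusted p of 0.868 for SLC11A1. This limma test called 0 of 35578 features, so it cannot show that the difference was alike on the chips. Averaged over littermates and corrected for chip, the DD litters had levels from 9.02 to 9.36 and the LW litters from 8.47 to 9.05, and 4 of the 5 DD litters lay above all 6 LW litters. A limma fit on litter means without a chip term gave 0.49 and lost the call (adjusted p = 0.0923).

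Each SLC11A1 probe passed the test by itself, where 21.7% of all single probes did. P077586 was higher in DD pigs by 0.63 ± 0.17 (adjusted p = 0.0169), O4480 by 0.49 ± 0.17 (adjusted p = 0.0396) and P708676 by 0.24 ± 0.09 (adjusted p = 0.0489). These calls on single probes were less stable than that on the gene. Of all member probes 5 were called, but 2 without the sow block, 1 without LW pig 05, 12, 18 or 24, and 0 with litter means, with array brightness in the model or without chip 2 or 3. The breed difference of P077586 exceeded that of P708676 by 0.39, which did not pass an exact two-sided permutation test of breed within chips (p = 0.0777, 0.194 after adjustment over the 5 probe comparisons made in this work). The other pairs of SLC11A1 probes differed by 0.13 and 0.25 in size (exact permutation p = 0.15 and 0.242). Littermates share a breed, and these permutations took no account of litters. In the limma fit of single probes the consensus correlation of littermates was −0.11.

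**Figure D2:**
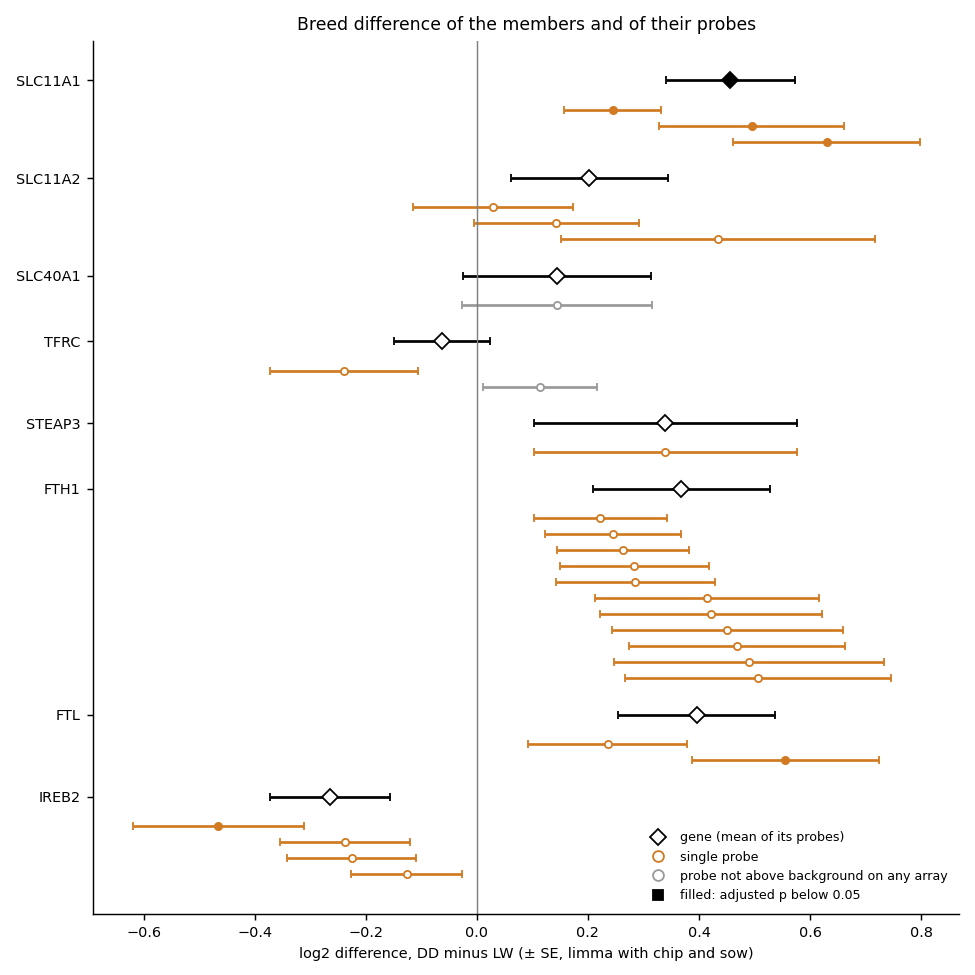
Breed difference (log2, DD minus LW, x axis) with its standard error for each member (diamonds) and each of its kept probes (circles, grey where the probe was not well above background on any array). Filled symbols have an adjusted p below 0.05 and include SLC11A1 and its 3 probes, 1 FTL probe and 1 IREB2 probe.

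The call on SLC11A1 did not rest on any single pig. With each pig left out in turn the difference lay between 0.41 and 0.49 and the adjusted p between 0.00585 and 0.0314. After adding array brightness to the model the difference was larger, 0.54, but had an adjusted p of 0.0629. Without chip 1, 2 or 3 the differences were 0.40, 0.38 and 0.49 with adjusted p of 0.0675, 0.0723 and 0.133.

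Markers of monocytes and neutrophils, the cells known for SLC11A1 expression, were set beside it. Of the 6 monocyte marker genes tested, none was called higher, where 11.4% of all features were, and CD163 was called lower. Their median difference was 0.06, and −0.08, −0.17 and −0.14 without chips 1, 2 and 3. Of the 7 neutrophil marker genes none was called in either direction, with a median of 0.17 that was 0.03 without chip 3 and −0.08 with array brightness in the model. With so few markers these counts lie near the share of all features, and the part of these cells in the SLC11A1 difference was not tested. The mean level of the monocyte list ran from 7.43 to 8.73 in DD pigs and from 7.93 to 8.71 in LW pigs, and that of the neutrophil list from 8.18 to 9.94 and from 8.56 to 9.86. After the means of breed and chip were removed, the genes most like SLC11A1 over the 21 arrays among 7614 named genes were FN1 (Pearson's r = 0.87), VCAN (0.82) and CHST15 (0.79). FN1 encodes fibronectin, VCAN encodes versican and was on the monocyte list, and CHST15 encodes a sulfotransferase. None of these genes was called, with differences of 0.05 ± 0.22 for FN1, 0.08 ± 0.21 for VCAN and −0.21 ± 0.19 for CHST15.

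SLC11A2, the endosomal transporter, had levels from 5.49 to 6.91 in DD pigs with a median of 6.30 and from 5.59 to 6.40 in LW pigs with a median of 6.27. The medians were close and the breeds overlapped, with 4 DD pigs above and 1 below the LW range. The difference was 0.20 ± 0.14 (adjusted p = 0.31). On chip 1 it was 0.49, and on chips 2 and 3 it was 0.05 and 0.07. Its 3 probes gave 0.43 ± 0.28, 0.14 ± 0.15 and 0.03 ± 0.14, and the first of these was well above background on 1 DD array and no LW array. When the arrays were scaled to their 75th percentile instead of quantile normalized, the gene gave 0.48 with an adjusted p of 0.0442. In the other 14 of 15 alternative settings, those with 1 pig left out aside, it was not called. It gave 0.07 without chip 1 and 0.09 with only probes well above background (adjusted p = 0.797 and 0.625).

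TFRC, SLC40A1 and STEAP3, the receptor, the exporter and the ferrireductase, were not measured well enough by the probes that carry their names. The only SLC40A1 probe was not well above background on any array, and which strand of the message it carries was not checked. Of the TFRC probes 1 was also not well above background on any array. The other TFRC probe was well above background on 3 of 10 DD arrays and 8 of 11 LW arrays, with a level of 4.66 ± 0.31 (SD) in DD pigs and 4.90 ± 0.32 in LW pigs and a difference of −0.24 ± 0.13 (adjusted p = 0.193). Of the STEAP3 probes, 1 was removed as too dim and the other was well above background on a single array, that of DD pig 11. That pig had a level of 6.73, while the other 9 DD pigs lay between 3.72 and 4.60 and the LW pigs between 3.59 and 4.94. The STEAP3 difference was 0.34 ± 0.24 (adjusted p = 0.307), and 0.11 without that pig. The fitted SLC40A1 value of 0.14 ± 0.17 (adjusted p = 0.563) compares signals not well above background in either breed and is no measure of a change.

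For TFRC and SLC40A1 the array held other probes that the naming rule does not take, and they were bright. They were looked up after the values of the named probes had been seen. The probe P299604 is annotated with the mouse-style name Tfrc and was well above background on all 21 arrays. It had 9.48 ± 0.61 (SD, n = 10) in DD pigs and 9.71 ± 0.36 (n = 11) in LW pigs, a difference of −0.26 ± 0.19 (adjusted p = 0.312). The probe P256402 is described as a variant of human ferroportin and covers a small part of that message. It had 14.28 ± 0.94 in DD pigs and 13.79 ± 0.84 in LW pigs, both well above background on every array, and was higher in DD pigs by 0.48 ± 0.15 (adjusted p = 0.0319). Its differences on chips 1, 2 and 3 were 0.06, 0.72 and 0.62. Whether these probes read the pig genes was not tested, and the start of each is given.
P299604: atgcccttataactgtatacaagctggtat
P256402: gcccctttatgcctctcaaatcaggatagg

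The ferritin chains had positive differences that were not called. FTH1 had levels from 16.81 to 17.81 in DD pigs with a median of 17.29 and from 15.84 to 17.78 in LW pigs with a median of 17.10. In these levels, which still hold the chip effects, the LW pigs were spread more widely (SD 0.58 against 0.29 in DD pigs). Of the LW pigs 4 lay below every DD pig. With chip effects removed the FTH1 spread was similar, with an SD of 0.39 in LW and 0.36 in DD pigs, and 4 LW pigs again lay below every DD pig. The difference was 0.37 ± 0.16 with an adjusted p of 0.0979. FTL had levels from 13.67 to 14.45 in DD pigs with a median of 14.10 and from 12.91 to 14.41 in LW pigs with a median of 13.70. Here too 4 LW pigs lay below all DD pigs and 1 DD pig lay above all LW pigs. The difference was 0.40 ± 0.14 with an adjusted p of 0.0504, next to the threshold, and it was called after pigs DD 06, DD 13, LW 07 or LW 15 were left out (adjusted p = 0.0144, 0.0335, 0.0199 and 0.0367). The FTL gene value averages the probe of the message and its opposite-strand probe, here and in the correlations below. Without the opposite-strand probe the limma difference was 0.24 (adjusted p = 0.235).

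The ferritin differences were largest on chip 3. From chip 1 to chip 3, FTH1 differed by 0.01, 0.15 and 1.05 and FTL by −0.01, 0.27 and 1.01. On chip 3 the DD pigs had FTH1 levels of 17.21, 17.28 and 17.57 and the LW pigs 15.84, 16.33 and 16.75, with no overlap. FTL on chip 3 was 14.07, 14.13 and 14.45 in DD pigs and 12.91, 13.29 and 13.41 in LW pigs, also with no overlap. On that chip 43.6% of all features had breeds that did not overlap, against 6.17% on chip 1 and 7.81% on chip 2. The interaction of breed and chip had an unadjusted p of 0.0432 for FTH1 and 0.0192 for FTL and an adjusted p of 0.448 for both, in a limma fit that called 0 of 35578 features and had 3964 at an unadjusted p below 0.05. Without chip 3 the difference fell to 0.05 for FTH1 and 0.13 for FTL (adjusted p = 0.908 and 0.738).

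**Figure D3:**
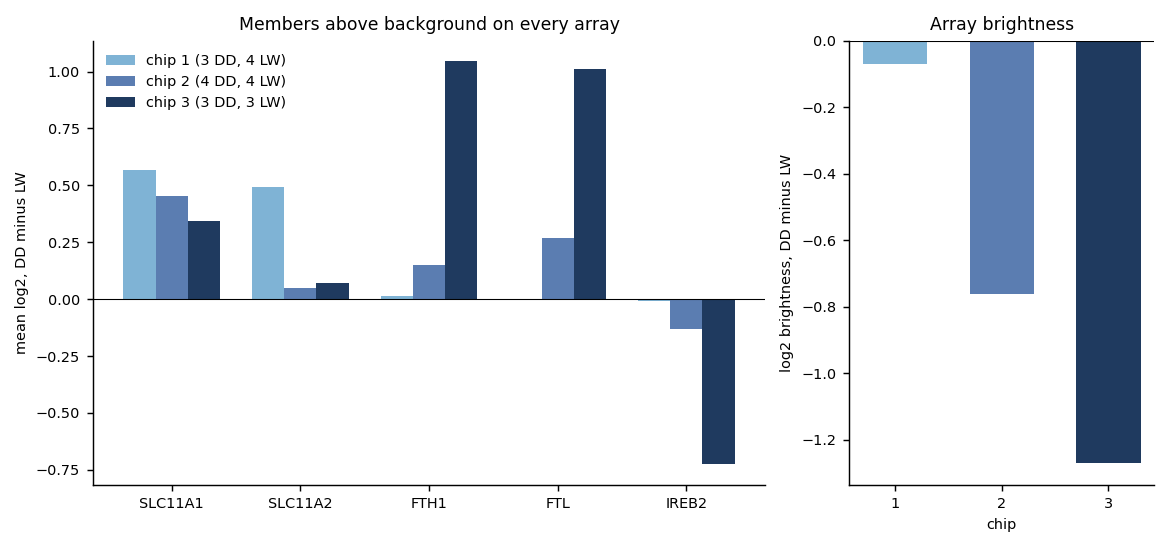
Difference of the mean log2 level (DD minus LW, y axis) of the 5 members above background on every array, by chip (left), beside the breed difference in array brightness on the same chips (right). SLC11A1 is higher in DD pigs by 0.57, 0.45 and 0.34 on chips 1 to 3, while FTH1, FTL and IREB2 have their largest differences on chip 3 (1.05, 1.01 and −0.73).

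Array brightness, taken as the upper quartile (75th percentile) of processed signals in log2, moved with the ferritins. It averaged 7.53 ± 0.54 (SD) on DD arrays and 8.22 ± 0.38 on LW arrays, and DD arrays were dimmer by 0.07 on chip 1, 0.76 on chip 2 and 1.27 on chip 3. After the means of breed and chip were removed, Pearson's r with brightness over the 21 arrays was −0.87 for FTL, −0.59 for FTH1, 0.63 for IREB2, 0.58 for SLC11A2 and 0.22 for SLC11A1. With brightness as a covariate the differences were −0.04 for FTL, 0.02 for FTH1 and −0.05 for IREB2 (adjusted p = 0.985, 0.996 and 0.978). Under scaling to the 75th percentile FTH1 and FTL were called higher, by 0.84 and 0.70 (adjusted p = 0.0341 and 0.0338), while the median of all features was 0.06 instead of −0.04. The part of brightness in these differences was not tested beyond these values.

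**Figure D4:**
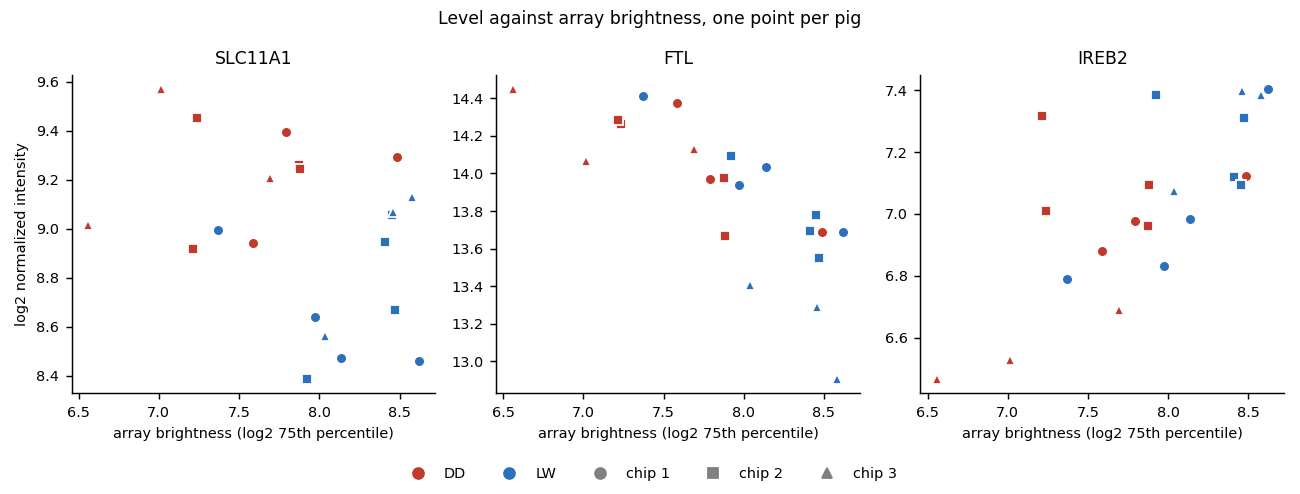
Level (log2 normalized intensity, y axis) of SLC11A1, FTL and IREB2 against the brightness of the array (75th percentile of its processed signals, log2, x axis), 1 point per pig with breed by colour and chip by shape. FTL falls and IREB2 rises with brightness (r = −0.87 and 0.63 after breed and chip means were removed), and for SLC11A1 this r is 0.22.

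The FTH1 probes all had positive differences, from 0.22 to 0.51 with a median of 0.41, and none was called (adjusted p from 0.0847 to 0.182). They stood between place 18 and place 1131 in brightness among the 60305 probes of an array, and no probe was saturated. Quantile normalization gives every array the same set of values, so a probe at the top of an array can move only as its place changes. The first set of overlapping probes, whose differences were 0.41 to 0.47, differed by 1.35 to 1.43 on chip 3. The second set had differences of 0.22 to 0.28, and of 0.46 to 0.54 on chip 3. On chip 1 every probe of both sets lay within −0.02 to 0.07. The breed differences of the sets differed by 0.18, which did not pass an exact permutation test of breed within chips (p = 0.337).

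Of the FTL probes the one on the opposite strand was called. P050477, the probe of the reference message, had 18.35 in DD and 18.14 in LW pigs, and its difference of 0.24 ± 0.14 was not called (adjusted p = 0.235). The opposite-strand probe O14325 had 9.83 in DD and 9.28 in LW pigs, and it was called at 0.56 ± 0.17 (adjusted p = 0.0276). The excess of 0.32 of the opposite-strand probe had an exact permutation p of 0.0587, 0.194 after adjustment over the 5 comparisons. Over chips 1, 2 and 3 the probe of the message differed by −0.06, −0.01 and 0.88 and the opposite-strand probe by 0.05, 0.54 and 1.15. Without the opposite-strand probe the FTL value was 0.24 with an adjusted p of 0.235.

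Other probes described as ferritin, but not named FTH1 or FTL, were not called either. A probe for an Ensembl transcript annotated as ferritin had 16.35 in DD and 15.87 in LW pigs, with a difference of 0.51 ± 0.19 (adjusted p = 0.0636). A probe similar to a rat ferritin light chain differed by 0.76 ± 0.30 (adjusted p = 0.0697) and a probe named for a heavy-chain pseudogene by 0.29 ± 0.19 (adjusted p = 0.28). Their differences on chip 1 were −0.0035, −0.21 and −0.0085, and those on chip 3 were 1.23, 1.58 and 0.70.

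IREB2, the second iron regulatory protein, had a negative difference that was not called. It had levels from 6.47 to 7.32 in DD pigs with a median of 6.97 and from 6.79 to 7.40 in LW pigs with a median of 7.12. Of the DD pigs 3 lay below every LW pig and 4 LW pigs lay above every DD pig. The difference was −0.26 ± 0.11 (adjusted p = 0.0821), and it was called without pig DD 06 or LW 07 (adjusted p = 0.0466 and 0.0486). By chip it was −0.01, −0.13 and −0.73. On chip 3 the DD pigs had 6.47, 6.53 and 6.69 and the LW pigs 7.08, 7.39 and 7.40. All 4 IREB2 probes had negative differences, of 0.13 to 0.47 in size, and O11170 was called (−0.47 ± 0.15, adjusted p = 0.037). The message of its partner ACO1, which is no member here, had 2 probes with opposite signs, −0.19 ± 0.16 and 0.36 ± 0.16, and neither was called (adjusted p = 0.41 and 0.0967).

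Some members varied together from pig to pig within a breed and chip. Over the 21 arrays, with the means of breed and chip removed, Pearson's r was 0.84 between FTH1 and FTL, and FTL and FTH1 ran against IREB2 with −0.67 and −0.58. For SLC11A1 the r was −0.09 with FTH1, −0.32 with FTL, 0.44 with SLC11A2 and −0.08 with IREB2. These arrays share the brightness differences given above, and the correlations describe them without a test. The named genes most like FTH1 were NME4 (r = 0.90), METTL9 (0.88) and KLHDC8B (0.87), and those most like FTL were WSCD1 (0.96), GGH (0.96) and IHH (0.95). For TFRC they were ARGLU1 (0.83), SMAD4 (0.82) and ATL2 (0.82), and for SLC40A1 PRDX6, PYGL and METTL9 (0.76, 0.76 and 0.75), both read by dim probes. The genes like FTL were called higher in DD pigs, GGH by 0.99 ± 0.25 and IHH by 1.05 ± 0.29 (adjusted p = 0.0143 and 0.0189) and WSCD1 by 0.56 ± 0.19 (adjusted p = 0.0403). The genes like FTH1 were not called.

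Markers of other blood cells were counted in the same fit, where 11.4% of all features were called higher and 9.57% lower. Of the 6 erythroid marker genes tested, 1 was called, EPB42, higher in DD pigs by 1.06 ± 0.29, and the median of the list was 0.43. That median was 0.10 without chip 3 and 0.04 with array brightness in the model. The mean level of the erythroid list ran from 10.57 to 12.14 in DD pigs and from 10.22 to 11.36 in LW pigs. Of 9 T cell markers 4 were called lower, CD3D, CD3G, CD247 and CD8A. The median of the T cell list was −0.50, and it was −0.32 without LW pig 24 and −0.13 with array brightness. Their mean level ran from 8.33 to 9.46 in DD pigs and from 8.96 to 9.97 in LW pigs. Of 5 platelet markers PPBP was called lower, and of 3 B cell and 4 NK cell markers none was called. The part of the cell types in the ferritin and IREB2 differences was not tested.

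The other genes of iron and haem handling were listed by role, and 53 of the 83 listed had a probe of exactly that name bright enough to be tested. Probes under other spellings were not counted. A probe named tfr2 was called higher in the fit of single probes by 0.59 ± 0.17 (adjusted p = 0.0209). It differed by 0.09, 0.37 and 1.45 on chips 1, 2 and 3. Of the 53 genes, 6 were called higher and 4 lower in DD pigs, where 21% of all features were called, and their median difference was −0.04. The genes called higher were HAMP, HFE2, NCOA4, SKP1, BOLA3 and FLVCR2, and those called lower were CD163, HMOX1, NFU1 and EPAS1. The list moved in no common direction, with 23 of the 53 genes positive. With array brightness as a covariate, and also without chip 3, 0 of the 53 genes were called in limma, and 6 and 7 of them had an unadjusted p below 0.05.

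**Figure D5:**
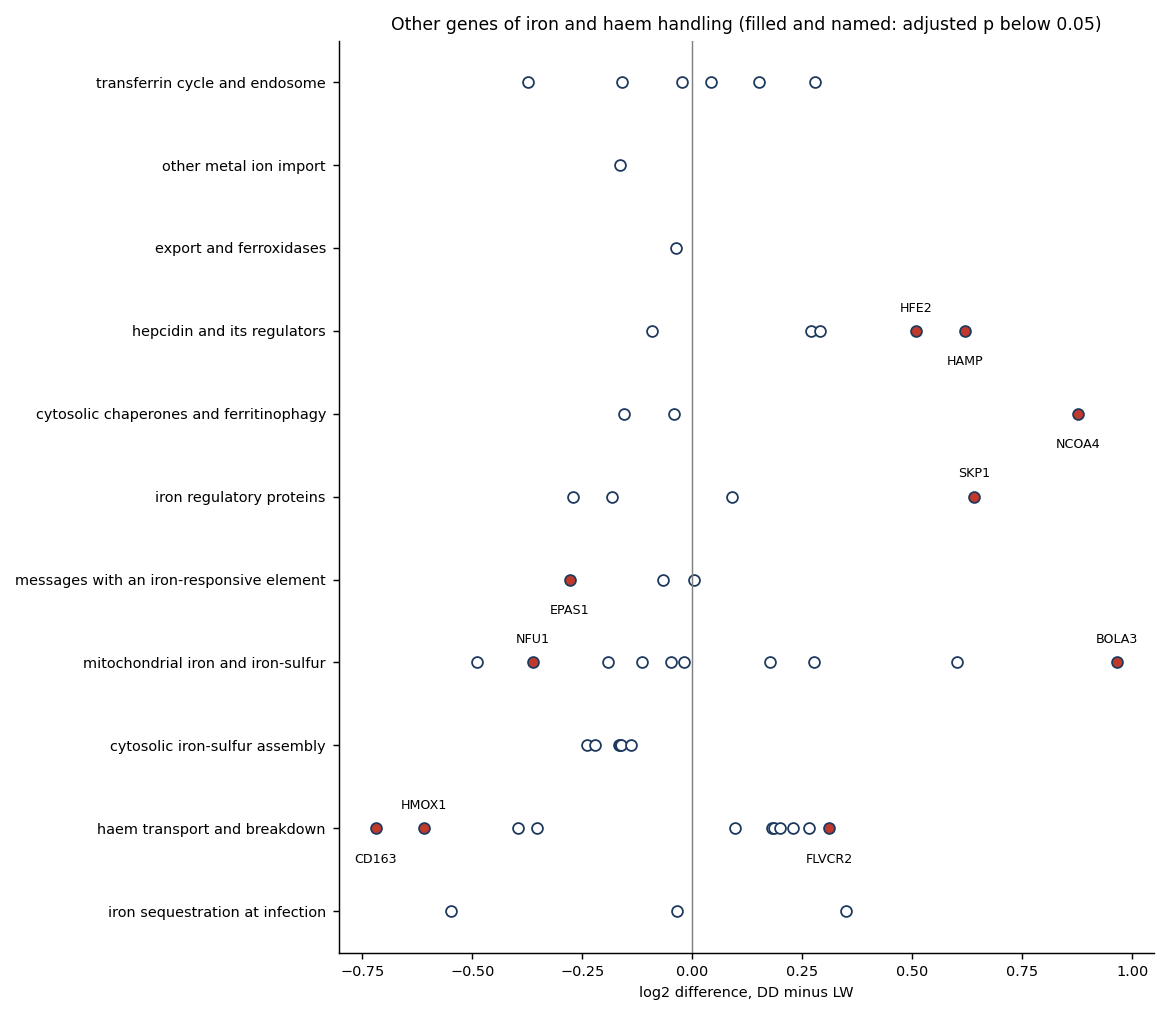
Breed difference (log2, DD minus LW, x axis) of each of the 53 tested genes of iron and haem handling, in rows by role. The 10 filled and named genes had an adjusted p below 0.05, and they lie on both sides of 0, from −0.72 for CD163 to 0.97 for BOLA3.

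Among the haem genes, CD163 and HMOX1 were lower in DD pigs. CD163, the macrophage receptor for haemoglobin bound to haptoglobin, averaged 6.21 ± 0.47 (SD) in DD pigs and 6.92 ± 0.55 in LW pigs, a difference of −0.72 ± 0.21 (adjusted p = 0.0232). HMOX1, the inducible haem oxygenase that frees iron from haem, differed by −0.61 ± 0.18 (adjusted p = 0.0242). Of 6 CD163 probes 4 were called lower, and of 3 HMOX1 probes 2. CD163 was lower on chips 1, 2 and 3, by 0.75, 0.83 and 0.53 in size. HMOX1 was lower on chips 2 and 3, by 1.10 and 0.66 in size, and differed by 0.02 on chip 1. FLVCR2, a transporter of the haem exporter family, was higher by 0.31 ± 0.11 (adjusted p = 0.0415). The other 8 of the 11 haem genes were not called, the haptoglobin gene HP among them with 0.10 ± 0.29.

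Around ferritin, NCOA4, the receptor that takes ferritin to the lysosome for breakdown, was higher in DD pigs by 0.88 ± 0.23 (adjusted p = 0.0171). It averaged 10.98 in DD and 10.13 in LW pigs, its 4 probes gave 0.85 to 0.90, and the difference was 0.63 on both chips 1 and 2 and 1.47 on chip 3. SKP1, a subunit of the ubiquitin ligase that degrades IREB2 protein, was higher by 0.64 ± 0.12 (adjusted p = 0.0017), while FBXL5, its iron-sensing subunit, had −0.27 ± 0.11 and was not called (adjusted p = 0.0869). SKP1 serves many other ligases as well. EPAS1, a hypoxia factor whose message carries an iron-responsive element, was lower by 0.28 ± 0.09 in size (adjusted p = 0.0407).

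The message of HAMP was higher in DD blood by 0.62 ± 0.16 (adjusted p = 0.0134). HAMP encodes hepcidin, the hormone that triggers the removal of ferroportin from the cell surface, and the hormone itself was not measured. HFE2, which encodes the hepcidin regulator hemojuvelin, was higher by 0.51 ± 0.12 (adjusted p = 0.0112). The differences were positive on every chip, from 0.28 to 1.11 for HAMP and from 0.35 to 0.71 for HFE2. The levels of HAMP averaged 6.78 in DD and 6.16 in LW pigs. In iron-sulfur assembly, BOLA3 was higher by 0.97 ± 0.30 (adjusted p = 0.0315) with −0.05 on chip 1, and NFU1 was lower by 0.36 ± 0.11 in size (adjusted p = 0.0271). All 6 genes of cytosolic iron-sulfur assembly had negative differences, from −0.24 to −0.14, and none was called. Of the genes not called, SLC25A28, a mitochondrial iron importer, LCN2, the siderophore-binding lipocalin, ABCB10 and the folate and haem carrier SLC46A1 had the largest differences, with 0.60 ± 0.33, −0.55 ± 0.31, −0.49 ± 0.18 and −0.40 ± 0.18.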

How the data were processed

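RNA from whole blood of 10 DD and 11 LW pigs (60 days old) was hybridised to a custom Agilent pig array, 1 array per pig on 3 chips. The scanner files, made by the submitters with Agilent Feature Extraction 10.7.3.1, hold the intensity of each spot as deposited, and the matrix holds log2 values that the authors background corrected (normexp) and quantile normalized over the 21 arrays kept after 3 outlying arrays had been dropped. The authors also describe a technical bias of the third chip. The number of arrays limits the precision.

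Here control spots and the 25% of probes with the lowest mean were removed, which left 45228 of 60305 probes, and probes with one gene name were averaged to 35578 features. Probes named only "gi" (1498) were kept as single features. Differences were fitted in limma 3.58.1 (R 4.3.3) with breed and chip fixed and the sow as random block (duplicateCorrelation, consensus −0.11), with eBayes and Benjamini-Hochberg adjustment. With this negative correlation the block did not make the test stricter, as 7459 features were called with it and 5106 without it. The adjusted p of SLC11A1 was 0.0141 with the block and 0.0219 without it. Groups came from the breed labels, litters and chips from the study's sample list. P-values measure the spread between these pigs. Names and probe sequences came from the scanner files and coordinates from RefSeq (Sscrofa11.1). Named genes were the members, the iron genes called, the 4 largest not called, and the 3 genes most correlated with SLC11A1, TFRC, SLC40A1, FTH1 and FTL. FBXL5, HP, ACO1, the cell type markers and the probes found by description were named after their values were seen. Members and lists were chosen with earlier results of these data known. Alternatives changed the normalization, the filter, the probe summary, the probe names and the sow, chip and brightness terms, or left out each chip or pig. The limma fit was tested on simulated data, with planted differences larger than those of the members and with no litter or brightness effect.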

Additional observations from a re-analysis of the deposited data

Results flagged for a closer look

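STEAP3 in DD pig 11 stood apart from its group. Its chip-corrected log2 level was 6.51, and the next highest of the 10 DD pigs had 4.85. The gap was 0.635 of the range of the group, beyond Dixon's critical value for 10 samples. Chance takes about 1 of 20 groups of normally distributed values beyond that critical value, and 8 members were looked at. The chance of a gap as large as this one was not computed. The array of this pig was the only one on which this probe was well above background, and the other STEAP3 probe, which is not well above background on any array, had 3.92 there. Without this pig the STEAP3 difference fell from 0.34 to 0.11 on the log2 scale.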

How the results depend on the processing

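SLC11A1 kept its direction in all 36 other settings and its call in each with 1 pig left out; it lost the call without chip 1, 2 or 3, with litter means and with brightness as a covariate (0.38 to 0.54, adjusted p from 0.0629 to 0.133). The number of members called, 1, was 4 under scaling to the 75th percentile (SLC11A1, SLC11A2, FTH1 and FTL), 2 with only probes well above background (SLC11A1 and FTL), and 0 with litter means, without chip 2, without chip 3 and with brightness as a covariate, where limma gave 2, 4, 1 and 2 members an unadjusted p below 0.05. Without chip 1 the 1 member called was FTL. The 5 member probes called became 14 under 75th percentile scaling, 2 without the filter on dim probes, without the sow block or without chip 1, 1 without the chip term, and 0 with litter means, without chip 2 or 3 and with brightness (4, 12, 3 and 4 at an unadjusted p below 0.05). The 10 iron genes called became 15 with only probes well above background and 14 with the brightest probe per gene. They became 6 without the filter, 4 without the chip term, 1 with litter means, and 0 without chip 3 and with brightness. The 7459 features called became 8487 with only probes well above background, 7967 with the brightest probe per gene and 7943 without chip 1. They fell to 5106 without the sow block, 4670 without the filter and 1929 without the chip term. They became 969 with litter means, 533 without chip 3 and 780 with brightness. With 1 pig left out the counts were 1 to 3 members, 1 to 6 member probes, 6 to 13 iron genes and 3771 to 10060 features, the ends for features without DD 21 and DD 06; SLC11A1, FTL and IREB2 were the members called. Among the members the sign turned only for values that were not called: FTL (−0.038), SLC40A1 (−0.221) and TFRC (0.012) with brightness, SLC40A1 (−0.063) and STEAP3 (−0.0023) without chip 2, and TFRC (0.055) without chip 3. Of the marker medians printed above, that of monocytes also turned with the brightest probe per gene (−0.0759) and without DD 10 (−0.0067). The probe names taken by letter case or description, and FTL without its opposite-strand probe, were settings chosen after the data were seen; adding the Tfrc and ferroportin-like probes gave −0.13 for TFRC and 0.31 for SLC40A1, neither called. The cause of these changes was not tested. No paired analysis of the breeds was possible, because littermates share a breed and no label pairs a DD pig with an LW pig.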
